A study of Homo sapiens with 6 samples.

Results

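The genes described here serve protein folding in the endoplasmic reticulum (ER), the removal of misfolded proteins from it (ER-associated degradation, ERAD) and the unfolded protein response (UPR). They are 49 genes named by symbol (sensors and transcription factors, folding enzymes and chaperones, ERAD factors and translocon subunits), found by matching Ensembl gene identifiers to symbols among 60604 genes counted. All 49 were matched, 1 of them (VIMP) under its current symbol SELENOS, and 47 had enough reads to be tested among 17200 genes. The libraries came from AGS cells, an established line of human gastric adenocarcinoma. Control cells received 0 mM indomethacin in 3 libraries, and treated cells received 0.5 mM for 24 h in 3 libraries. Indomethacin is a non-steroidal anti-inflammatory drug that inhibits cyclooxygenases. The labels name no genetic change between the groups, and both share the one cell line. The control's solvent and time are not given in the labels either. The series title names such drugs, sirtuin 3 and gastric cancer cell death as its subject. The labels leave it unsaid whether the 3 libraries per group stem from 3 cultures; the p-values thus rest on library-to-library spread that may be technical.

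A set of sensors in the ER membrane start the UPR. IRE1 (gene ERN1) cuts XBP1 mRNA so that an active transcription factor is made, ATF6 is cut in the Golgi by the proteases S1P (MBTPS1) and S2P (MBTPS2) to release a transcription factor, and PERK (EIF2AK3) phosphorylates eIF2alpha and so favours translation of ATF4. The factors raise chaperones such as BiP (HSPA5), enzymes that form disulfide bonds, and the ERAD machinery that marks, pulls out and ubiquitinates misfolded proteins. Gastric epithelial cells secrete mucins and enzymes and rely on this machinery.

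Deposited counts summed to 20983189, 23221077 and 21919853 in control replicates 1, 2 and 3 and to 20094302, 19323461 and 17535435 in indomethacin replicates 1, 2 and 3. Levels are given as CPM, the counts of a library over its size, with that size adjusted by TMM, a factor taken from the bulk of genes. Of the variance of log2 CPM, 84.0% lay on a component that separated the groups, and 5.44% on a second on which indomethacin replicate 1 stood at 27.8, replicate 2 at 5.18 and replicate 3 at -34.0. Control replicates 1, 2 and 3 stood at 10.2, 10.3 and -19.5 on this second component. Mitochondrial genes took 22.8% to 26.8% of counts in control and 16.7% to 19.7% in indomethacin libraries. All 5 epithelial markers were present, 1 higher, 2 lower and 2 not called. CLDN4 went from 99.6 CPM in control to 324 CPM in indomethacin, EPCAM from 286 to 178 CPM and KRT8 from 1674 to 1147 CPM, while KRT18 stood at 721 and 852 CPM and KRT19 at 638 and 590.0 CPM. Of 8 markers of other cell types, PTPRC, CD3E, CD14, COL3A1, PECAM1 and VWF lay under 0.4 CPM in every library, ACTA2 at 2.93 to 3.79 CPM and COL1A1 at 4.07 to 6.44 CPM in control and 9.25 to 11.1 CPM in indomethacin, and the part of COL1A1-bearing cells in the results was not tested. In bulk RNA a change in the share of cells that make a transcript cannot be told apart from a change in transcript per cell.

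The 8 members with the highest fold changes were the sensor ERN1 (9.97-fold), DNAJB9, HSPA5 and HYOU1 of the BiP system, HERPUD1, SYVN1 and SEL1L of ERAD and the oxidase ERO1B, whereas the lectin chaperone CALR and the protein disulfide isomerases PDIA3 and PDIA6 fell. By edgeR's quasi-likelihood test (adjusted p under 0.05 over all genes tested), 33 of the 47 tested members (70.2%) differed between the groups, against a background of 61.6% of all genes tested. Of the members 27 (57.4%) were higher with indomethacin, against 30.6% of all genes, and 6 (12.8%) were lower, against 31.0%. The remaining 14 did not pass. A change of at least 2-fold and a passed test were found in 18 members (38.3%), 17 higher and 1 lower. Of all genes 33.0% met both, with directions nearly even (2999 higher and 2676 lower). In 31 members (66.0%) the 3 libraries of one group lay wholly above the 3 of the other, against 67.0% of all genes, so in this measure the members were near the background. The median log2 fold change was 0.57 over the members and 0.04 over all genes.

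**Figure D1:**
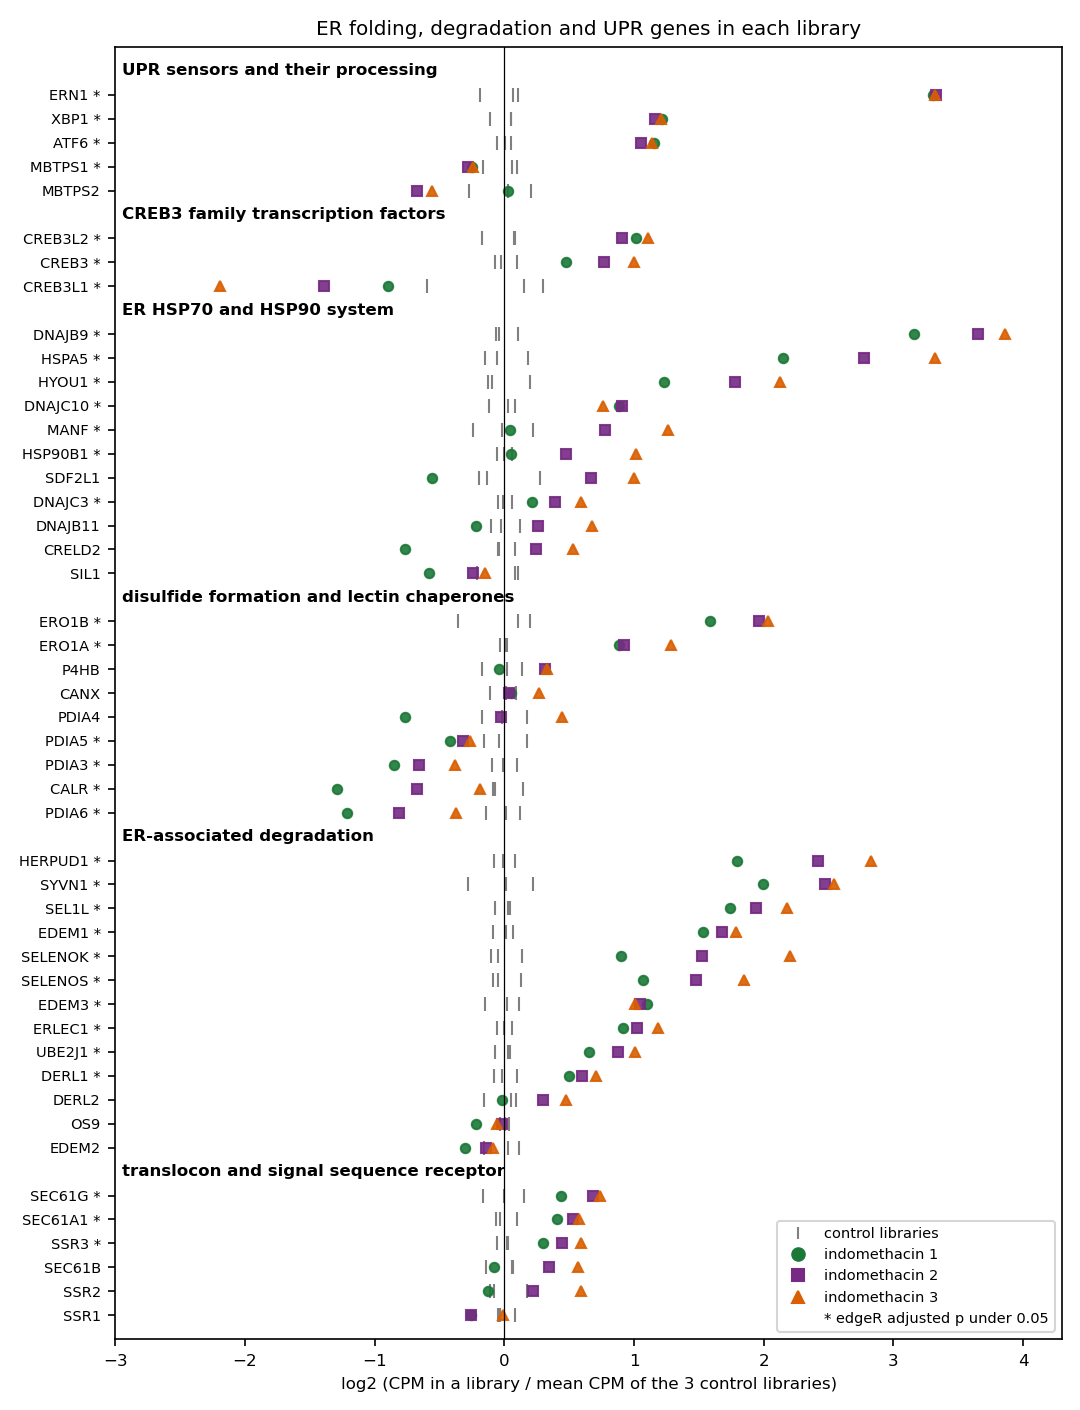
Log2 ratio of the CPM in each library to the mean CPM of the 3 control libraries (x axis) for the 47 tested members, grouped by role; ticks are control libraries, symbols are indomethacin libraries and a star marks an edgeR adjusted p under 0.05. The 3 indomethacin symbols lie on each other for ERN1 and XBP1 and are spread for HSPA5, MANF and CALR, with replicate 1 at the left and replicate 3 at the right.

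Among the sensors, ERN1 (ENSG00000178607, hg38 chromosome 17, 64039080 to 64130819, minus strand), which encodes the kinase and endoribonuclease IRE1alpha, changed most. It stood at 11.6, 11.9 and 9.71 CPM in control replicates 1, 2 and 3 and at 109, 111 and 111 CPM in the indomethacin replicates. The groups lay far apart and the 3 treated libraries were almost equal. Its mean was 11.0 ± 1.17 CPM in control and 110.2 ± 1.01 CPM in indomethacin (SD, n = 3), a 9.97-fold rise (log2 fold change 3.32, SE 0.12, edgeR adjusted p = 1.5e-10).

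XBP1 (ENSG00000100219, chromosome 22, 28794555 to 28800597, minus strand), the mRNA that IRE1 cuts, stood at 170.5, 171 and 152 CPM in control and at 383, 368 and 380.0 CPM in indomethacin. Every treated library was more than the highest control library, and the rise was 2.29-fold (log2 fold change 1.20, SE 0.10, edgeR adjusted p = 2.7e-07). Counts per gene do not tell the cut form of XBP1 from the uncut form. ATF6 (chromosome 1, 161766298 to 161977574, plus strand) went from 119, 129 and 125 CPM to 276, 258 and 274 CPM, again with no overlap (2.17-fold, log2 fold change 1.12, SE 0.10, edgeR adjusted p = 3.9e-07).

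The proteases that release ATF6 did not share this rise. MBTPS1 (S1P) stood at 136, 159 and 163 CPM in control and 129, 126 and 129 CPM in indomethacin (log2 fold change -0.26, SE 0.10, edgeR adjusted p = 0.046). The groups did not overlap, but the call was lost under 7 of 14 alternative analyses, among them upper-quartile scaling (log2 fold change -0.14, adjusted p = 0.25). MBTPS2 (S2P) was at 8.09, 11.2 and 9.95 CPM in control and at 9.93, 6.12 and 6.61 CPM in indomethacin, with overlapping groups (edgeR adjusted p = 0.13).

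The CREB3 family encodes membrane-bound transcription factors that S1P and S2P also cut. CREB3L2 was at 16.6, 19.7 and 19.7 CPM in control and at 37.8, 34.9 and 40.3 CPM in indomethacin (log2 fold change 1.01, SE 0.12, edgeR adjusted p = 6.1e-06). CREB3 was at 34.4, 33.3 and 37.4 CPM in control and at 48.6, 59.7 and 70.2 CPM in indomethacin (0.76, SE 0.13, adjusted p = 0.00019). In both genes every treated library exceeded every control library. Exons of CREB3 share 134 of 1635 bases with GBA2 on the opposite strand, which held 7692 counts beside 5672 for CREB3. The part of CREB3 counts that could come from GBA2 is not known. CREB3L1 was the 1 member that fell by more than 2-fold, from 1.81, 3.37 and 3.05 CPM to 1.47, 1.04 and 0.601 CPM (2.60-fold lower, log2 fold change -1.38, SE 0.36, edgeR adjusted p = 0.0043). Its level was the lowest of the tested members in both groups.

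Some members carry known UPR response elements in their promoters, and these were looked up as text matches. The ER stress response element (ERSE) was searched as CCAAT, then 9 bases of any kind, then CCACG, and ERSE-II as ATTGG, then 1 base, then CCACG. The core of the UPR element (UPRE) was searched as TGACGTGG and the cAMP response element (CRE) as TGACGTCA, each on both strands. The windows reached from 250 bases before to 50 bases after a start in a RefSeq promoter table (GRCh38.p14). Only 1 window per gene symbol was searched, so other starts of a gene were left out. There were 27305 windows in all, and 46 of the 49 members had one. DERL1, DERL3 and PDIA3 were not among them. ERSE stood in 7 of 46 members (15.2%) and in 22 of all windows (0.0806%). ERSE-II stood in 3 members and in 15 of all windows (0.0549%). One or the other stood in 10 members (21.7%), against 25 of the 11111 windows of tested genes (0.225%), members included. Since such elements were already known in some members, this contrast is a description and no test. The matches are listed to show how alike the elements are in members that rose, fell or did not pass the test. They are read along the motif with the fixed bases in capitals. Positions are those of the first base in promoter direction, where -1 is the base before the start.
HSPA5, ERSE at -66: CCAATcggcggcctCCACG
XBP1, ERSE at -52: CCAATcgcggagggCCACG
ERO1B, ERSE at -243, minus strand: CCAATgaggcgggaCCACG
HSP90B1, ERSE at -194: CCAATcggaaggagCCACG
HSP90B1, ERSE at -89, minus strand: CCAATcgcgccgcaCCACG
CRELD2, ERSE at -80, minus strand: CCAATccgagttcgCCACG
CANX, ERSE at -151: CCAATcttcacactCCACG
CALR, ERSE at -225, minus strand: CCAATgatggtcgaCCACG
HERPUD1, ERSE-II at -117: ATTGGgCCACG
HYOU1, ERSE-II at -185 and again at -79, minus strand: ATTGGaCCACG
SDF2L1, ERSE-II at -188, minus strand: ATTGGtCCACG
Of the 26 members with a window that were higher with indomethacin 6 held ERSE or ERSE-II, as did 1 of 5 that were lower (CALR) and 3 of 14 that did not pass the test (CRELD2, CANX and SDF2L1). The UPRE core stood in 3 members (DNAJC10, HYOU1 and UBE2J1), against 0.795% of all windows, and in HYOU1 at -188 it overlapped the ERSE-II at -185. CRE stood in 1 member, CREB3L2, against 1.98% of all windows. These letters were not in the windows of DNAJB9, SEL1L, SYVN1, EDEM1 or ERN1.

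**Figure D2:**
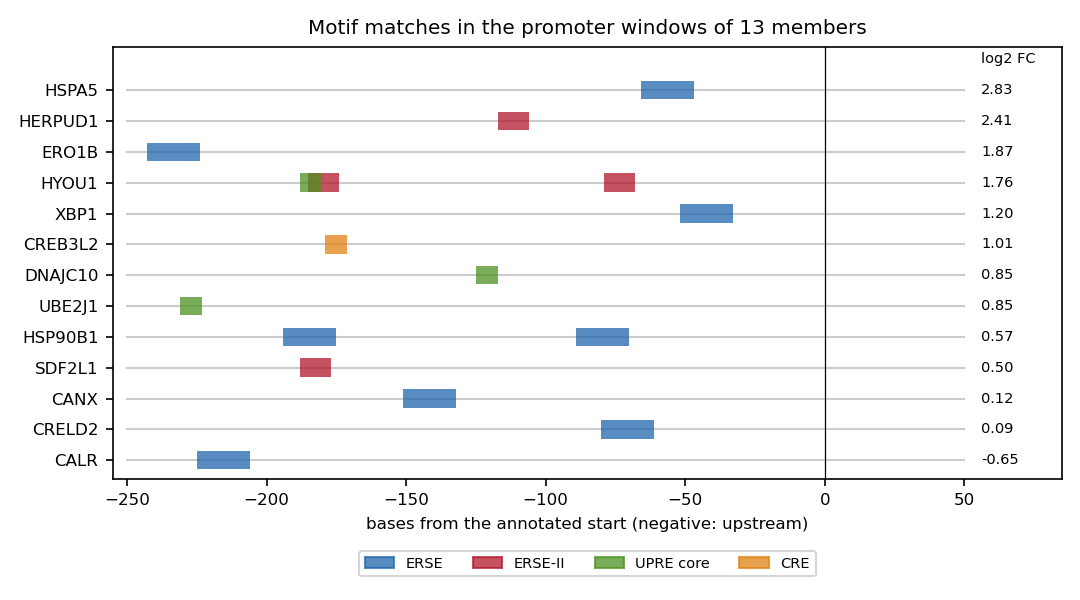
Position of each motif match (coloured boxes) in the promoter windows of the 13 members with a match, in bases from the annotated start (x axis, negative upstream), with the member's log2 fold change at the right. ERSE lies in HSPA5 (2.83) and in CALR (-0.65), at the top and the bottom of the list.

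The upstream sequence is shown for the 4 members with the highest fold changes among those that hold ERSE or ERSE-II and passed the test, and for the 1 such member that was lower. Each runs from base -250 to base -40 of the promoter (211 bases, RefSeq, GRCh38.p14, 5′ to 3′ on the strand of the gene), with ERSE or ERSE-II in capitals.
HSPA5, chr9:125241383-125241593, minus strand: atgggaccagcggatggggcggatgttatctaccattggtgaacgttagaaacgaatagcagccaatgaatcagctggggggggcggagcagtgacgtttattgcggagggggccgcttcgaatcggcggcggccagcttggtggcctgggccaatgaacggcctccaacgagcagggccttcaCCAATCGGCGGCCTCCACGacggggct
HERPUD1, chr16:56931892-56932102, plus strand: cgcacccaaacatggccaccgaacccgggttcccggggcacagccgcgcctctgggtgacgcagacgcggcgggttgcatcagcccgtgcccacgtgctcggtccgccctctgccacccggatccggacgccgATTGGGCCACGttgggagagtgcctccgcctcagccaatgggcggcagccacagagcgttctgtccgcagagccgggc
ERO1B, chr1:236281998-236282208, minus strand: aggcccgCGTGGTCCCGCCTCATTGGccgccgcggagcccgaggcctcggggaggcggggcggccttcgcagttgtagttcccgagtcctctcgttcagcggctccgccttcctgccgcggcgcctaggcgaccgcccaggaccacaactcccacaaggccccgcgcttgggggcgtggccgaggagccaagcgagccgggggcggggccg
HYOU1, chr11:119057245-119057455, minus strand: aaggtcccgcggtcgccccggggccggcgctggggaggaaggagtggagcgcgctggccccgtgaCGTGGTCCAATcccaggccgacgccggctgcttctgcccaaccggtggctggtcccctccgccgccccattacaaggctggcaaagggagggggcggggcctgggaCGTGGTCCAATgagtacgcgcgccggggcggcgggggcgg
CALR, chr19:12938359-12938569, plus strand: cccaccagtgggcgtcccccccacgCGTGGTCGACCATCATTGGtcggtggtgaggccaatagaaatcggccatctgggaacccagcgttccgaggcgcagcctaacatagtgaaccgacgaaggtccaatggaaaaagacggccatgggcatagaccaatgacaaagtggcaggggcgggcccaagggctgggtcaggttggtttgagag
HSPA5, HERPUD1, ERO1B and CALR each hold 1 exact match, and HYOU1 holds a pair. Only exact matches were counted and put in capitals, so elements with a changed base, if present, are left unmarked. A match of letters is a description and does not show that a factor bound there in these cells.

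The chaperones that bind unfolded chains with BiP and its partners rose in part. Of the 11 genes of the HSP70 and HSP90 system 7 (63.6%) were higher with indomethacin, none was lower and 4 did not pass, with a median log2 fold change of 0.57. Of all genes tested 30.6% were higher and 31.0% lower. HSPA5 (ENSG00000044574, chromosome 9, 125234853 to 125241382, minus strand), the gene of the HSP70 chaperone BiP, stood at 284, 304 and 358 CPM in control replicates 1, 2 and 3. It stood at 1397, 2152 and 3153 CPM in indomethacin replicates 1, 2 and 3. All treated libraries were far above control, and among them replicate 1 was lowest and replicate 3 highest. The means were 315 ± 38.4 and 2234 ± 881 CPM (SD, n = 3), 7.09-fold apart (log2 fold change 2.83, SE 0.23, edgeR adjusted p = 1.9e-07), and the estimate ran from 2.48 to 3.05 as single libraries were left out.

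DNAJB9 (ENSG00000128590, chromosome 7, 108569867 to 108574850, plus strand), the co-chaperone ERdj4 that is known to bring BiP to the lumenal domain of IRE1, had the largest fold change of the members. It stood at 9.96, 9.81 and 11.0 CPM in control and at 91.5, 129 and 149 CPM in indomethacin. The means of 10.3 ± 0.663 and 123 ± 29.4 CPM were 12.0-fold apart (log2 fold change 3.59, SE 0.17, edgeR adjusted p = 1.1e-09). HYOU1, which encodes the nucleotide exchange factor GRP170, stood at 269, 275 and 336 CPM in control and at 691, 1006 and 1278 CPM in indomethacin (3.38-fold, log2 fold change 1.76, SE 0.19, adjusted p = 2.0e-06). In both genes the groups were wide apart, and treated replicate 1 was the lowest and replicate 3 the highest.

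The other co-chaperones moved less. DNAJC10 (ERdj5, a reductase that acts before degradation) stood at 176, 169 and 152 CPM in control and 306, 311 and 281 CPM in indomethacin (log2 fold change 0.85, SE 0.10, edgeR adjusted p = 8.5e-06). DNAJC3 (p58IPK, which also restrains PERK) stood at 127, 123 and 133 CPM in control and 149, 168 and 193 CPM in indomethacin (0.41, SE 0.11, adjusted p = 0.0064). The groups did not overlap in either gene, and DNAJC10 lacked the order of libraries seen in HSPA5.

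HSP90B1, the ER form of HSP90 (GRP94), and MANF, a small secreted protein that binds BiP, passed the test although treated replicate 1 stood within the control range. HSP90B1 was at 1151, 1193 and 1244 CPM in control and at 1239, 1659 and 2419 CPM in indomethacin (log2 fold change 0.57, SE 0.19, edgeR adjusted p = 0.018). It no longer passed when control replicate 1 (0.48, adjusted p = 0.071), control replicate 2 (0.52, adjusted p = 0.051) or indomethacin replicate 3 (0.27, adjusted p = 0.096) was left out. MANF was at 53.3, 45.6 and 62.7 CPM in control and at 55.7, 92.0 and 129 CPM in indomethacin (0.78, SE 0.22, adjusted p = 0.0081), and DESeq2 did not call it (adjusted p = 0.11).

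Of the 4 genes that did not pass, SDF2L1 (a partner of ERdj3), DNAJB11 (ERdj3 itself) and CRELD2 (a disulfide isomerase-like protein of the ER) showed treated replicate 1 below every control library and replicate 3 above every one. SDF2L1 was at 15.3, 14.6 and 20.3 CPM in control and at 11.4, 26.7 and 33.5 CPM in indomethacin (edgeR adjusted p = 0.13). DNAJB11 was at 62.5, 59.3 and 69.3 CPM in control and at 54.8, 76.5 and 102 CPM in indomethacin (adjusted p = 0.17). CRELD2 was at 32.1, 31.8 and 35.0 CPM in control and at 19.3, 39.0 and 47.5 CPM in indomethacin (adjusted p = 0.74). Without indomethacin replicate 1 all 3 passed, with log2 fold changes of 0.82, 0.46 and 0.37. SDF2L1 also passed with no filter on low counts (log2 fold change 0.40, adjusted p = 0.024), with that library kept. The fourth, SIL1, another exchange factor of BiP, went the other way, at 57.9, 71.8 and 70.8 CPM in control and 44.8, 56.6 and 60.3 CPM in indomethacin (log2 fold change -0.31, edgeR adjusted p = 0.051), and 8 of 14 alternatives called it lower.

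The genes of disulfide formation and lectin chaperoning were divided. Of 9 genes 2 (22.2%) were higher, 4 (44.4%) were lower and 3 did not pass, with a median log2 fold change of -0.03. Of all genes tested 30.6% were higher and 31.0% lower, so in a list of 9 these counts are near the background. The 2 that rose encode the oxidases that pass electrons from protein disulfide isomerases to oxygen. ERO1B was at 8.44, 12.4 and 11.6 CPM in control and at 32.5, 42.1 and 44.2 CPM in indomethacin (3.66-fold, log2 fold change 1.87, SE 0.16, edgeR adjusted p = 3.1e-07). ERO1A was at 136, 137 and 132 CPM in control and at 249, 256 and 329 CPM in indomethacin (1.04, SE 0.12, adjusted p = 4.6e-06). The groups of both were clearly apart.

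The isomerases themselves, which make and rearrange disulfide bonds, fell or did not pass. PDIA6 was at 414, 462 and 496 CPM in control and at 198, 261 and 353 CPM in indomethacin (1.69-fold lower, log2 fold change -0.76, SE 0.17, edgeR adjusted p = 0.0015). PDIA3 (ERp57, the partner of calreticulin and calnexin) was at 823, 877 and 945 CPM in control and at 489.8, 558 and 678 CPM in indomethacin (-0.62, SE 0.13, adjusted p = 0.0010). Treated replicate 3 lay nearest to control in both, yet under every control library. Exons of PDIA6 share 1033 of 4096 bases with ATP6V1C2, and those of PDIA3 share 622 of 4221 with ELL3. Both neighbours lie on the opposite strand and held few counts (236 for ATP6V1C2 beside 45115 for PDIA6, and 62 for ELL3 beside 90279 for PDIA3). In addition, 2 pseudogene copies of PDIA3 held 6996 counts.

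PDIA5 was at 42.8, 39.7 and 49.9 CPM in control and at 33.0, 35.4 and 36.8 CPM in indomethacin (log2 fold change -0.33, SE 0.12, edgeR adjusted p = 0.023); it did not pass under upper-quartile scaling (adjusted p = 0.11) or when control replicate 3 (0.091) or indomethacin replicate 2 (0.053) was left out. PDIA4 (ERp72) did not pass, at 530.2, 589 and 673 CPM in control and 351, 588 and 811 CPM in indomethacin (-0.03, SE 0.22, adjusted p = 0.90). Its treated libraries reached below and above the whole control range. P4HB (PDI) was at 482, 550.4 and 595 CPM in control and 528, 673 and 683 CPM in indomethacin (0.21, adjusted p = 0.17; called under upper-quartile scaling, adjusted p = 0.032).

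The lectin chaperones hold glycoproteins with trimmed sugar chains while they fold. CALR (ENSG00000179218, chromosome 19, 12938578 to 12944489, plus strand), the soluble calreticulin, was at 1147, 1135 and 1328 CPM in control and at 492, 756 and 1059 CPM in indomethacin. All treated libraries were below all control libraries, but replicate 3 was close to them. The means of 1204 ± 108 and 769 ± 284 CPM (SD, n = 3) were 1.57-fold apart (log2 fold change -0.65, SE 0.21, edgeR adjusted p = 0.014). The call was lost with DESeq2 (adjusted p = 0.066) and without indomethacin replicate 2 (adjusted p = 0.053). Without replicate 1 the log2 fold change was -0.43 and without replicate 3 it was -0.96. CANX, the membrane-bound calnexin, overlapped between the groups, at 1537, 1339.6 and 1461 CPM in control and 1501, 1485 and 1740.2 CPM in indomethacin (0.12, SE 0.12, adjusted p = 0.39).

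**Figure D3:**
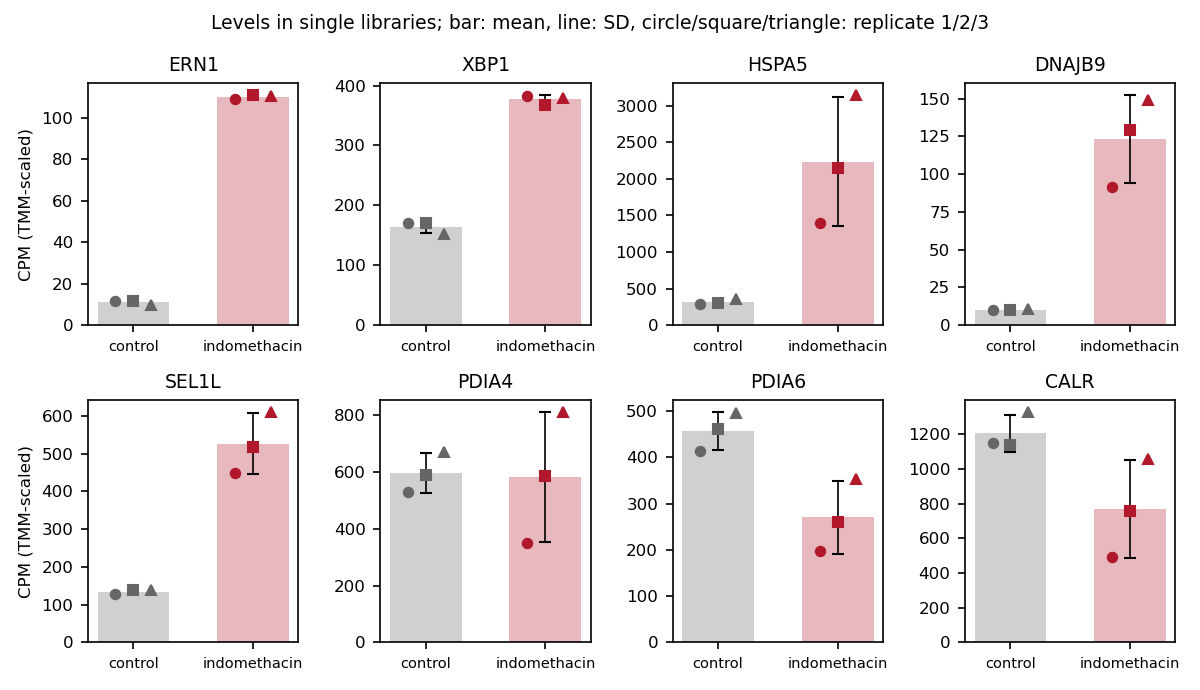
CPM (y axis, from 0) of 8 members in each library; bars are group means, lines are the SD (n = 3), and circle, square and triangle are replicates 1, 2 and 3. The treated libraries of ERN1 and XBP1 are level, those of HSPA5, DNAJB9 and SEL1L are spread above control, those of PDIA4 straddle control (351 to 811 CPM), and those of PDIA6 and CALR lie below it.

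ERAD held the largest share of rises among the roles with more than 5 genes tested. Of 13 tested genes 10 (76.9%) were higher, none was lower and 3 did not pass, with a median log2 fold change of 1.05. The background was 30.6% higher and 31.0% lower. HERPUD1 (ENSG00000051108, chromosome 16, 56932142 to 56944864, plus strand), a membrane protein that organises the ubiquitin ligase complex, was at 58.7, 62.5 and 55.8 CPM in control and at 205, 316 and 419.5 CPM in indomethacin. Its means were 59.0 ± 3.34 and 313 ± 107 CPM, 5.31-fold apart (log2 fold change 2.41, SE 0.20, edgeR adjusted p = 1.9e-07). SYVN1, the ligase HRD1 that ubiquitinates the substrates, was at 7.26, 10.3 and 8.87 CPM in control and at 35.1, 48.8 and 51.4 CPM in indomethacin (5.10-fold, log2 fold change 2.35, SE 0.17, adjusted p = 5.0e-08). SEL1L, its scaffold, was at 128, 139 and 137 CPM in control and at 449, 517 and 611 CPM in indomethacin (3.90-fold, 1.96, SE 0.13, adjusted p = 1.6e-08). In all 3 genes the lowest treated library was more than 3 times the highest control library. Of the 5495 exon bases of SYVN1, 130 are shared with FAU on the same strand and 356 with MRPL49 on the opposite strand. Over all libraries FAU held 19033 counts and MRPL49 4939, beside 3152 for SYVN1. The part of SYVN1 counts that could come from these neighbours is not known.

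The mannosidase-like proteins EDEM1 and EDEM3, which trim sugars on proteins that fail to fold, rose, whereas EDEM2 did not pass. EDEM1 was at 32.2, 35.7 and 34.5 CPM in control and at 98.6, 109 and 118 CPM in indomethacin (3.18-fold, log2 fold change 1.67, SE 0.11, edgeR adjusted p = 1.9e-08). EDEM3 was at 84.2, 101 and 94.8 CPM in control and at 199.7, 193 and 187 CPM in indomethacin (1.05, SE 0.10, adjusted p = 1.2e-06). EDEM2 overlapped, at 61.0, 69.3 and 73.5 CPM in control and 54.9, 61.7 and 64.1 CPM in indomethacin (-0.17, adjusted p = 0.19). Of the lectins that read the trimmed sugars, ERLEC1 rose from 42.9, 46.6 and 44.6 CPM to 84.5, 90.7 and 102 CPM (1.05, SE 0.11, adjusted p = 1.5e-06). OS9, the other lectin, overlapped, at 177, 182 and 185 CPM in control and 155, 179 and 174 CPM in indomethacin (-0.10, adjusted p = 0.43).

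The selenoproteins that bind the Derlin channel rose with wide spread between treated libraries. SELENOS (VIMP), which brings the p97 ATPase to the membrane, was at 33.1, 28.5 and 29.3 CPM in control and at 63.7, 84.5 and 109 CPM in indomethacin (2.83-fold, log2 fold change 1.50, SE 0.16, edgeR adjusted p = 2.6e-06). SELENOK, its smaller relative, was at 20.3, 17.1 and 17.9 CPM in control and at 34.5, 53.2 and 84.9 CPM in indomethacin (3.11-fold, 1.64, SE 0.24, adjusted p = 4.2e-05). The groups were apart in both genes.

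The ubiquitin-conjugating enzyme UBE2J1 was at 51.3, 47.2 and 50.8 CPM in control and at 78.4, 91.1 and 99.9 CPM in indomethacin (log2 fold change 0.85, SE 0.11, edgeR adjusted p = 1.7e-05). Of the Derlins, the channel proteins, DERL1 rose from 32.6, 28.8 and 30.1 CPM to 43.2, 46.3 and 49.9 CPM (0.61, SE 0.11, adjusted p = 0.00027). DERL2 overlapped, at 33.9, 29.3 and 34.9 CPM in control and 32.3, 40.3 and 45.4 CPM in indomethacin (0.27, adjusted p = 0.10). DERL3 held 1, 1 and 0 counts in control and 0, 2 and 0 counts in indomethacin and was not tested, so any change in it was not detectable at this depth.

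The translocon brings new chains into the ER, and its 6 genes moved little. 3 of the 6 (50%) were higher, none was lower and 3 did not pass, against 30.6% higher and 31.0% lower of all genes tested. Their median log2 fold change was 0.38, and none reached 2-fold. SEC61A1, the channel subunit, was at 201, 205 and 224 CPM in control and at 278, 303 and 313 CPM in indomethacin (0.50, SE 0.10, edgeR adjusted p = 0.00077). SEC61G, a small subunit, was at 33.8, 27.1 and 30.4 CPM in control and at 41.1, 48.8 and 50.7 CPM in indomethacin (0.62, SE 0.12, adjusted p = 0.00055). SSR3, a subunit of the translocon-associated complex, was at 144, 136 and 143 CPM in control and at 174, 192 and 213 CPM in indomethacin (0.45, SE 0.11, adjusted p = 0.0022). These 3 did not overlap between the groups. SEC61B, SSR1 and SSR2 did, with log2 fold changes of 0.30, -0.17 and 0.26 and adjusted p of 0.084, 0.18 and 0.16. STC2, a secreted glycoprotein known to rise in ER stress, held 3, 3 and 4 counts in control and 8, 3 and 3 in indomethacin and was not tested.

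Levels were also divided by the kilobases of all annotated exons of a gene. That length can exceed the mRNA present, so ranks between genes depend on it. It was 2802 bases for CALR, 6530 for HSPA5, 13092 for HSP90B1 and 13764 for CANX. Before this division CANX (mean 1446 CPM) stood above CALR (1204 CPM) in control. On this scale CALR led in control at 429.6 CPM per kilobase, before PDIA3 at 209, PDIA4 at 181, PDIA6 at 112 and CANX at 105. HSPA5 stood at 48.2 on this scale in control. In indomethacin HSPA5 led at 342 CPM per kilobase, before CALR at 274, PDIA4 at 177, PDIA3 at 136 and HSP90B1 at 135. HSPA5 stood at 214, 330 and 483 in indomethacin replicates 1, 2 and 3, and CALR at 176, 269.7 and 378. The order of these 2 genes was therefore the same in each treated library and the opposite of that in each control library, where CALR stood at 405 to 474. XBP1 went from 54.3 to 124 CPM per kilobase. The summed level of all members was 9458, 9585 and 10391 CPM in control and 11368, 14193 and 17884 CPM in indomethacin. That of the HSP70 and HSP90 system was 2237, 2298 and 2493 CPM in control and 4059, 5715 and 7847 CPM in indomethacin. That of the disulfide and lectin genes overlapped, at 5120, 5141 and 5692 CPM in control and 3874, 4653 and 5734 CPM in indomethacin.

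The treated libraries differed from each other in a shared direction. Of the 47 tested members 37 (78.7%) were lowest among the treated libraries in replicate 1, against 35.8% of all genes tested, and 39 (82.98%) were highest in replicate 3, against 37.8%. Both held for 35 members (74.5%), against 21.7% of all genes. With library sizes left as total counts, 26 members (55.3%) were highest in replicate 3, against 23.0% of all genes, and 36 (76.6%) were lowest in replicate 1, against 28.2%. This order is a description of single libraries and was not tested, and replicate numbers carry no order of their own. Among the control libraries the summed level of all members was also highest in replicate 3, at 9458, 9585 and 10391 CPM. That of the HSP70 and HSP90 system was too, at 2237, 2298 and 2493 CPM. The list of sensors and their processing was highest in control replicate 2, at 446, 482 and 460 CPM. Whether the spread is particular to treated libraries was not tested.

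The spread between treated libraries was unequal between roles. In the HSP70 and HSP90 system the median log2 ratio to the control mean was 0.05 in replicate 1, 0.67 in replicate 2 and 1.001 in replicate 3, and 10 of 11 genes had replicate 1 lowest and replicate 3 highest. In the disulfide and lectin genes the medians were -0.42, -0.02 and 0.27, with 8 of 9 genes in that order. ERAD stood at 0.92, 1.05 and 1.19, with 11 of 13 genes. The list of sensors and their processing, which leaves out PERK, stood at 1.15, 1.05 and 1.14, with 0 of 5. The PERK gene EIF2AK3 stood at 0.95, 1.17 and 1.39 and did show that order. Over all members the median ratio was 0.30, 0.60 and 0.74, and over all genes tested 0.02, 0.03 and 0.03. The span between the highest and lowest treated library had a median of 0.897 in the HSP70 and HSP90 system and 0.446 in disulfide and lectin genes. It was 0.349 in ERAD and 0.059 in the list of sensors and their processing, beside 0.404 over all genes tested. Within that last list MBTPS2 spanned 0.700, and EIF2AK3 outside it spanned 0.442. On the second component of all genes treated replicates 1 and 3 also stood at the ends, with control replicate 3 on the side of treated replicate 3. The part of that in the spread of the members was not tested.

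**Figure D4:**
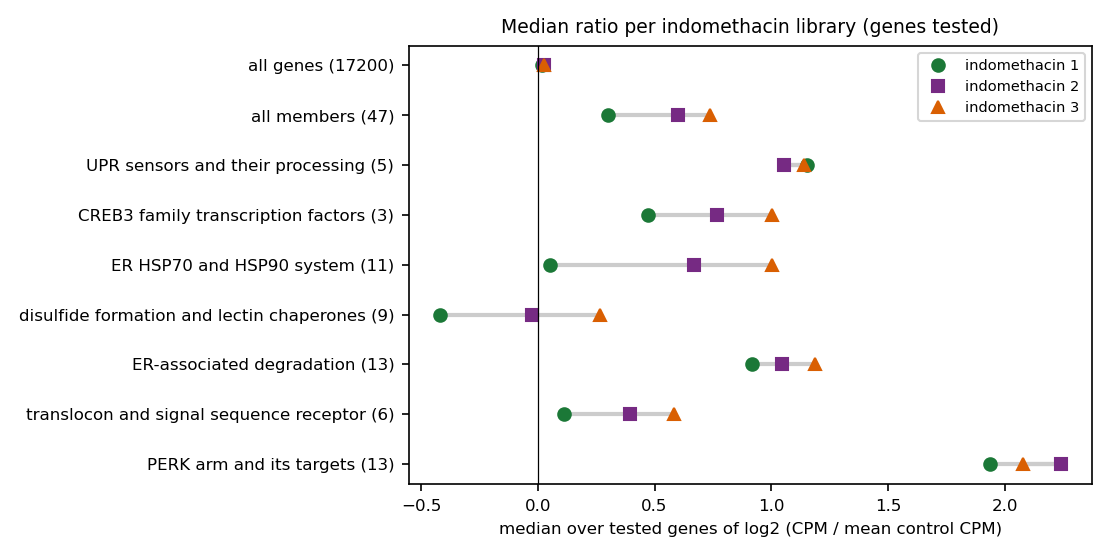
Median over tested genes of the log2 ratio of CPM in an indomethacin library to the mean control CPM (x axis), 1 symbol per treated library, for all genes, the members, each role and the PERK arm. The list of sensors and their processing (without PERK) and all genes show nearly coincident symbols. The HSP70 and HSP90 system runs from 0.05 to 1.001.

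The rest of the pathway was described with further gene lists, whose counts stand beside a background of 30.6% of all genes tested higher and 31.0% lower. These lists were chosen with earlier results of these data known, so their counts are a description and no test. The PERK arm, the third branch of the UPR, had 13 of 13 genes higher, with a median log2 fold change of 2.11. EIF2AK3, the gene of PERK, was at 26.5, 24.0 and 29.7 CPM in control and at 51.6, 60.1 and 70.1 CPM in indomethacin (log2 fold change 1.18, edgeR adjusted p = 3.5e-06). ATF4, the factor made when eIF2alpha is phosphorylated, went from 407 ± 43.1 to 712 ± 45.9 CPM (0.81, adjusted p = 3.7e-05). DDIT3, the gene of CHOP, went from 14.3 ± 3.37 to 174 ± 37.6 CPM (3.60, adjusted p = 3.2e-09). PPP1R15A (GADD34, which brings a phosphatase to eIF2alpha), TNFRSF10B (the death receptor DR5) and SESN2 (sestrin 2) rose with log2 fold changes of 2.78, 2.13 and 1.87. Of these 13 genes 12 were lowest in treated replicate 1 and 9 highest in replicate 3. ATF4 and several of its targets also answer to other kinases of eIF2alpha, and the data do not tell these apart.

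Among 7 tested relatives and partners of the sensors 3 were higher and 4 lower. CREB3L3, a relative of CREB3 best known from liver and intestine, went from 1.15 ± 0.405 to 76.6 ± 4.22 CPM (log2 fold change 6.06, edgeR adjusted p = 4.5e-11). ATF6B, the paralogue of ATF6, went from 17.6 ± 1.20 to 22.7 ± 1.22 CPM (0.37, adjusted p = 0.016). BLOC1S1, an mRNA known to be degraded by active IRE1, fell from 12.1 ± 1.33 to 5.32 ± 0.539 CPM (-1.19, adjusted p = 2.7e-05). RTCB, the ligase that joins the cut XBP1 mRNA, fell from 125 ± 7.69 to 84.3 ± 8.06 CPM (-0.57, adjusted p = 0.00038). CREB3L4 was lower (-0.48, adjusted p = 0.035) and CREBZF higher (0.49, adjusted p = 0.0033). ERN2, the second IRE1 gene, held 0, 1 and 4 counts in control and 0, 5 and 3 in indomethacin and was not tested.

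Of 29 other ERAD genes 15 were higher and 6 lower, with a median log2 fold change of 0.26. The 4 with the smallest adjusted p all rose, namely YOD1 (a deubiquitinase that works with p97, 1.38), HM13 (signal peptide peptidase, 1.11), RNF185 (a ubiquitin ligase, 1.41) and RHBDD1 (a rhomboid protease, 1.28). Of 29 other folding factors 8 were higher and 12 lower, with a median of -0.17. HSPA13, an HSP70 of the ER, rose from 37.4 ± 2.70 to 220 ± 24.4 CPM (2.55, edgeR adjusted p = 1.0e-09) and the prolyl isomerase FKBP14 rose (1.54). The peroxidase PRDX4 (-1.22) and the thioredoxin TMX1 (-1.32) were lower.

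Of 22 further translocation and signal peptidase genes 12 were higher and 8 lower, beside the same background of 30.6% and 31.0%. SEC63, a DnaJ partner of the translocon (1.30), and SEC11C, a signal peptidase subunit (1.22), rose, and the signal recognition particle subunits SRP9 (-1.37) and SRP14 (-0.94) were lower. Of 25 genes of N-glycan assembly and transfer 4 were higher and 11 lower, with a median of -0.22. The glycosyltransferase genes ALG8 (-1.82), ALG6 (-1.73) and ALG1 (-1.57) were lower and ALG2 was higher (0.83). Of 9 ER-phagy genes 3 were higher, 3 lower and 3 did not pass, which is near the background; the receptor CCPG1 rose from 9.12 ± 1.65 to 34.7 ± 3.97 CPM (1.92, edgeR adjusted p = 1.1e-07), the receptors RETREG2 (0.62) and CALCOCO1 also rose, and TEX264 was lower (-0.75, adjusted p = 4.4e-05).

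**Figure D5:**
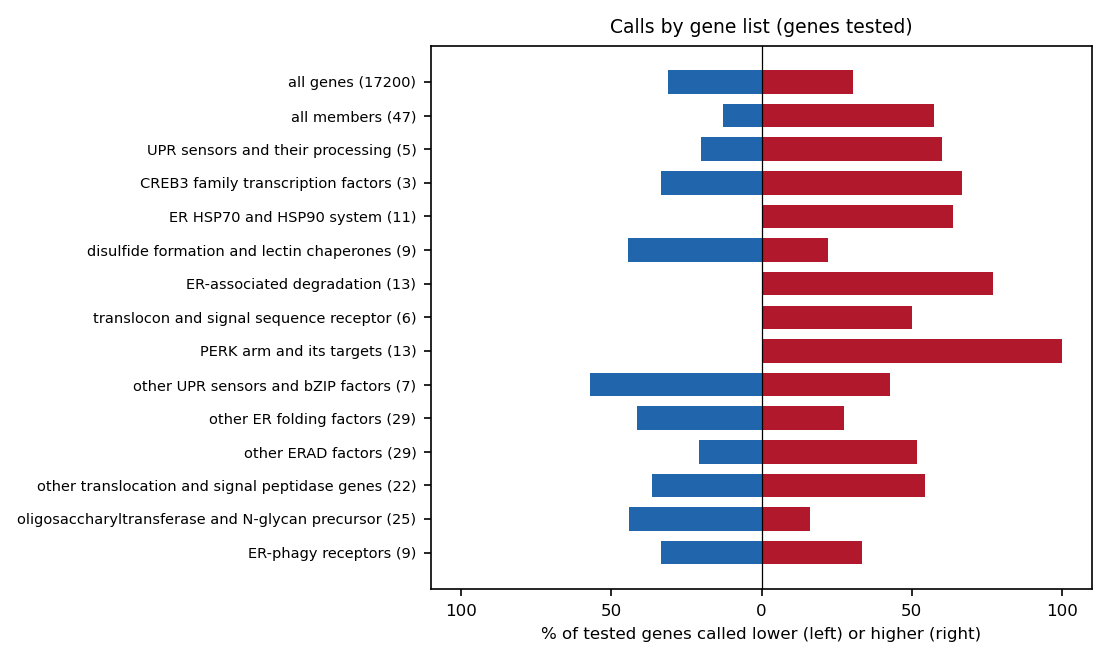
Share of tested genes called lower (left, blue) or higher (right, red) by edgeR at an adjusted p under 0.05 (x axis, percent) in each list, with the number tested in brackets. All genes are nearly even (31.0% and 30.6%), and the PERK arm is higher throughout. More lower than higher calls appear in the disulfide and lectin genes and the N-glycan genes. The same holds for the other folding factors and the other UPR sensors and bZIP factors.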

How the data were processed

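Total RNA was sequenced after ribosomal RNA depletion with a stranded kit, per the labels' protocols. bcl2fastq, FastQC 0.11.7, cutadapt 1.16, HISAT2 2.1.0, SAMtools, featureCounts and DESeq2 are named with build hg38, per the submitters' processing notes. The authors deposited raw counts per gene, 1 table per library. Strand setting, treatment of multi-mapping reads and annotation are not given in the sources used here. Exons of 19 members overlap another gene with counts, 17 of them on the opposite strand, so these counts could share reads.

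Each table held 60607 lines; 3, from a broken line of 1 gene, were left out. Symbols covered 60462 identifiers. Genes kept by filterByExpr were scaled by TMM and tested with edgeR 4.0.16 (R 4.3.3; glmQLFit, glmQLFTest, group as the only term, two-sided), with Benjamini-Hochberg adjustment over 17200 genes and a threshold of 0.05. Each standard error was derived from the F statistic of that test. Within groups, the counts of library pairs gave 6.99 to 21.9 as chi-square over its degrees of freedom, beyond sampling noise, and the 6 libraries entered as separate samples. Alternatives were other scalings, filters, limma-voom (limma 3.58.1), DESeq2 1.42.0, a replicate term and leaving out single libraries. The code was tested on simulated counts.

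The members and lists were chosen with earlier results of these data known. All members could be named, of the other lists the 4 genes with the smallest adjusted p plus EIF2AK3, ATF4, DDIT3, ATF6B, ERN2, CREB3L3 and CREB3L4. Promoters were printed for members with ERSE or ERSE-II past the threshold, up to 4 with the highest and 4 with the lowest fold change, leaving out the 39 bases next to the start.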

Additional observations from a re-analysis of the deposited data

How the results depend on the processing

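Of the 33 called members 28 kept their call under all 14 alternatives, 5 lost it under at least 1 (MBTPS1, HSP90B1, MANF, PDIA5 and CALR), and none of the 33 reversed. Of the 14 not called 11 were called under at least 1, and CRELD2, PDIA4 and OS9 changed sign. As single libraries were left out, members called higher ranged from 26 to 33 and members called lower from 3 to 9. With a 2-fold limit added, 17 were higher and 1 lower. CRELD2 (0.09) went to -0.011 with no filter and -0.015 with limma-voom, and from -0.19 without indomethacin replicate 3 to 0.37 without replicate 1. PDIA4 (-0.03) went to 0.080 with upper-quartile scaling and 0.012 with a filter of 1 CPM in 3 libraries, and from -0.36 without indomethacin replicate 3 to 0.20 without replicate 1, with 0.023 without control replicate 3. OS9 (-0.10) went to 0.021 with upper-quartile scaling. The cause of these changes was not tested. Upper-quartile scaling moved the median log2 fold change of all genes from 0.04 to 0.16, and 31 members were then higher and 4 lower.

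Same-numbered libraries deviated together only weakly (correlations 0.0233, 0.0117 and 0.132), so the numbers were not taken to pair the samples, and not every library correlated best with its own number. With a replicate block MBTPS1 was no longer called (adjusted p = 0.051) and SIL1 was called lower (adjusted p = 0.018), and no other member changed its call; 27 members were higher and 6 lower, and over all genes 5249 were higher and 5352 lower. The order of the treated libraries under other scalings was an alternative chosen after seeing the data. With RLE, upper-quartile and no mitochondrial genes, members lowest in replicate 1 numbered 37, 36 and 38 and members highest in replicate 3 numbered 38, 38 and 37. Depth limits DERL3 and STC2, whose counts were too low to test.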

Other observations

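The text matches also picked out genes outside the members. Among the promoter windows of tested genes, 15 besides those of the members held ERSE or ERSE-II, of which 5 were higher with indomethacin, 4 lower and 6 did not pass the test, with a median log2 fold change of 0.18. These counts are near the background of 30.6% of all genes tested higher and 31.0% lower. FICD, the enzyme that switches BiP off and on by adding and removing AMP, rose by a log2 fold change of 2.57 (SE 0.20, edgeR adjusted p = 8.7e-08). SERP1, which guards membrane proteins at the translocon, rose by 1.54 (SE 0.12, adjusted p = 1.4e-07). PLS3, an actin-bundling protein, was lower (-1.51, SE 0.12, adjusted p = 1.1e-07), as was SHCBP1 (-1.63, SE 0.26, adjusted p = 8.7e-05). These 4 were chosen after their values were seen. The matches are a description and no test of the motif was made.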
